A study of Mus musculus with 6 samples.

Results

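The genes described here are 60 genes whose mRNA rose in mouse granulosa cells (GCs) treated with dihydrotestosterone (DHT) and which were linked to a distal region on its signal of trimethylation of lysine 27 on histone H3 (H3K27me3). They were taken from a deposited table of 66 symbols, leaving out 5 genes and 1 entry that spreadsheet software had turned into a date. Each gene had been selected on its increase in expression after DHT, on a contact between its promoter and the distal region, and on a negative correlation between its expression and the H3K27me3 signal of that region over the 6 samples. Contacts were compiled from existing Hi-C and Capture-C data sets. The direction of expression and the link to a region are therefore given by the choice of genes and are not findings here. The regions were named H3K27me3 enhancers on these contacts and correlations, which do not require a called peak. A called control peak overlapped 1 of the 108 regions (0.926%), against 1.65% of all 2 kb tiles of the genome. They are called linked regions below. The table carries symbols alone, so no values just inside or outside its limits can be shown.

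H3K27me3 was mapped by chromatin immunoprecipitation and sequencing (ChIP-seq) in primary GC cultures from wild-type C57BL/6J mice of 8 to 9 weeks. The control group comprised 3 samples cultured without agent, and the DHT group comprised 3 samples given 25 nM DHT for 24 h. Cells collected from many mice were plated in dishes, so the samples are cultures and not single animals, and the labels and the study's methods differ on the number of mice. The files hold 1 peak list per group (16345 control and 3975 DHT peaks), and, for each group, a list of genes whose body carried a peak and a list of genes whose promoter did. No value exists per sample, so no number below has an error between replicates, and the depth of each library is unknown. Control peaks had a median fold enrichment over local background of 3.46 (quartiles 3.244 and 3.802) and DHT peaks of 4.21 (quartiles 3.841 and 4.69). Each fold is relative to its own pool. The files hold no expression values, so the identity of the cells could not be checked from marker mRNA.

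H3K27me3 is deposited by EZH2, the methyltransferase of Polycomb repressive complex, and is found on silent genes and on enhancers that are held inactive. An enhancer may act on a promoter far away when chromatin loops bring them together, and the mark on the enhancer can lower the output of that promoter while the gene itself carries none. GCs surround the oocyte, respond to gonadotropins and androgens, and use cholesterol as the substrate of steroid hormones. Cells make cholesterol from acetyl-CoA through the mevalonate pathway, whose genes are switched on together by SREBP transcription factors when sterols run low.

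By known function the 60 genes fell into 8 groups. They comprised 6 genes of sterol and isoprenoid synthesis, 6 of cholesterol handling, fatty acid desaturation and lipid mediators, 9 of inflammation and immunity, 12 transporters and ion channels, 8 of signalling and axon guidance, 4 of the extracellular matrix or secreted proteins, 9 other cellular proteins, and 6 non-coding or predicted transcripts. Of all members, 54 were protein coding, 3 were long non-coding RNAs and 1 was a pseudogene. Gm16267 and Gm13068 had no entry in the reference. Members lay on 19 chromosomes, most often on chromosome 19 (7 genes) and chromosome 2 (6 genes). The X chromosome held Ldoc1, Porcn and Slc38a5.

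Promoter sequences show what members with a common pathway share outside the rule that chose them. RefSeq promoters of assembly GRCm38.p6, from 250 bases before to 50 after the start site, were on hand for 40 of the 60 members (46 start sites). Of the sterol genes, 5 had an entry. They are shown 5' to 3' along the gene. Capitals mark the CCAAT box (CCAAT, or ATTGG on the other strand), the motif of NF-Y, and the GC box (GGGCGG, or CCGCCC on the other strand), the motif of SP1. Both factors are known partners of SREBP.
Acat2 promoter, chr17:12960676-12960975, minus strand: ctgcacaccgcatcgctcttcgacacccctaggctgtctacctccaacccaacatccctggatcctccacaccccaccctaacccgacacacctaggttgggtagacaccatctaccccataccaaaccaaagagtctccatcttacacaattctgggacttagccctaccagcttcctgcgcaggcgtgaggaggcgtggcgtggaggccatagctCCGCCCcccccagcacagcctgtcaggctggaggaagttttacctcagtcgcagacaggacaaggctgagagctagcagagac
Mvd promoter, chr8:122443373-122443672, minus strand: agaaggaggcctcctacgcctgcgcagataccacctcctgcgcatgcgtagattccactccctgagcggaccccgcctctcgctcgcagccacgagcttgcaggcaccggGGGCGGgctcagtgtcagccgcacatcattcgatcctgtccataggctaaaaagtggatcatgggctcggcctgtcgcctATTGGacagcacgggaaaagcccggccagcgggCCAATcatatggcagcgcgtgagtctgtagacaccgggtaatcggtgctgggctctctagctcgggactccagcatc
Idi1 promoter, chr13:8885356-8885655, plus strand: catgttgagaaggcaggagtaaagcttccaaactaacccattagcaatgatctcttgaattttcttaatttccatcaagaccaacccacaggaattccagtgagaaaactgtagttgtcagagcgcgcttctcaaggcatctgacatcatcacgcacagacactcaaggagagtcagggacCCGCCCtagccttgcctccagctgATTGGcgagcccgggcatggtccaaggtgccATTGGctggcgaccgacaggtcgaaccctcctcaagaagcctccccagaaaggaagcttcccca
Cyp51 promoter, chr5:4104648-4104947, minus strand: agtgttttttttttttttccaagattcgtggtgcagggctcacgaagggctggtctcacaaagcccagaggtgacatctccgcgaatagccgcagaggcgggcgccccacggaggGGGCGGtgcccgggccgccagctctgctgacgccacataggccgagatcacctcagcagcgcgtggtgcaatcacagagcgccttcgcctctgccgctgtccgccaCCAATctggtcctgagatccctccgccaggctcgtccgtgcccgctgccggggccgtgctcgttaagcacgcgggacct
Tm7sf2 promoter, chr19:6067801-6068100, minus strand: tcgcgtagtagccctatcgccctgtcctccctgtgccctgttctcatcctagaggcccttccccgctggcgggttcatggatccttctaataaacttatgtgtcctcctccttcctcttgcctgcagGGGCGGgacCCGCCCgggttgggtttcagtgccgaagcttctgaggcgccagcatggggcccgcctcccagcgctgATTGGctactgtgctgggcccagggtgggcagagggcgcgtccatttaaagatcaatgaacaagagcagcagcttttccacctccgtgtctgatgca
All 5 sterol promoters held a GC box, and 4 of 5 held a CCAAT box, the exception being Acat2. The CCAAT boxes began within 60 bases upstream of the start site, at positions -60 and -27 in Mvd, -45 and -14 in Idi1, -29 in Cyp51 and -47 in Tm7sf2. Among all 27025 genes with such an entry, 38.2% had a GC box and 41.1% a CCAAT box. Over the 40 members, 20 (50%) had a GC box and 17 (42.5%) a CCAAT box, so the CCAAT share of members as a whole was close to that of all genes. Neither difference was tested. The letters TCACNCCAC, one form of the sterol response element bound by SREBP, were in none of the 5 sterol promoters. They were found in 2 of the 40 members (5%), Fam110a and Saa3, against 1.44% of genes. A match of letters is a description and not a bound site.

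Cxcl1, a chemokine that attracts neutrophils, was the only member with the kappa B letters GGGANNNTCC, the motif of NF-kB. Its promoter is shown with the match in capitals. The motif was read on both strands, and its 2 matches overlap.
Cxcl1 promoter, chr5:90890995-90891294, plus strand: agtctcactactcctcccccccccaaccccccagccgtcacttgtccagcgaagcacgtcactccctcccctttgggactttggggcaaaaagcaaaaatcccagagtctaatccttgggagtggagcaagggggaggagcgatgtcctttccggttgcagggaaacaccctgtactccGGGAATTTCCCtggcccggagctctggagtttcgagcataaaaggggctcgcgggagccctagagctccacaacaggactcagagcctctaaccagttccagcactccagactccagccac
The matches began 71 and 70 bases upstream of the start. Of all genes 5.21% held these letters, against 1 of 40 members (2.5%). For the androgen receptor, the half-site AGAACA occurred in 6 members (15%), namely Slc16a12, Ncf1, Vnn3, Tm7sf2, Hdc and Fam110a, compared with 21.3% of genes. The full palindrome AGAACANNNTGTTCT occurred in 0 of 40 members and in 0.0111% of genes. The hypoxia core ACGTG occurred in 6 members (15%, against 21.8% of genes), and TATAAA in 2 (5%, against 15.7%), Ifi202b and Pik3c2g. All motifs were searched on both strands.

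The next question was whether members carried the mark in their own gene body or promoter. A promoter here is the window from 1 kb before to 1 kb after the start of transcription. In the control gene body list, 6 of 60 members were present (10%, 95% Wilson interval 4.66 to 20.2%), where 11.9% of all curated RefSeq genes were listed. In the DHT gene body list there were 3 members (5%, interval 1.72 to 13.7%), and 4.36% of all genes were listed. Hence members were in each of these lists at about the rate of any gene. Neither promoter list held a member. A count of 0 of 60 allows a share of up to 5%, taken as 3 counts (the Wilson upper bound is 6.02%), and the lists themselves held 0.603% of all genes in control and 0.206% after DHT. With 60 genes, shares as low as those of all genes cannot be told from 0.

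**Figure D1:**
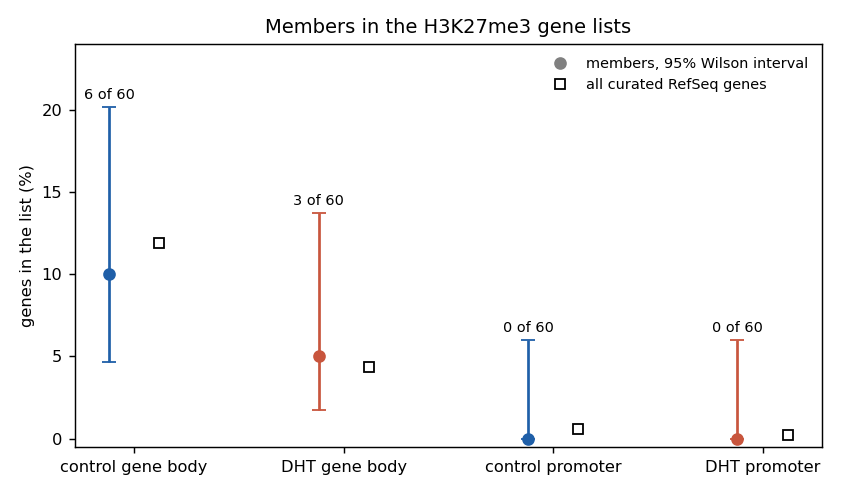
Share of genes in each H3K27me3 gene list (y axis, percent) for the 60 members (circles, with 95% Wilson intervals and the counts) and for all curated RefSeq genes (squares), for the control (blue) and DHT (red) lists of gene bodies and promoters. The intervals of the members take in the share of all genes in each of the 4 lists, with 6 of 60 against 11.9% in control gene bodies and 3 of 60 against 4.36% in DHT gene bodies.

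Of the 6 listed members, 3 were in both gene body lists and 3 in the control list alone. In the study, most genes with a control peak in their body had none after DHT. The control list held 3144 symbols and the DHT list 1146, so at most 1146 of the 3144 could be in both. With 6 genes, no difference from that pattern was tested. Gsg1l, Palmd and Pik3c2g were in the gene body lists of both groups. Gsg1l is an auxiliary subunit of AMPA-type glutamate receptors, Palmd (palmdelphin) is a membrane-associated protein linked to the actin cytoskeleton, and Pik3c2g is a class II phosphoinositide 3-kinase. Slc16a12, Tg and Atxn7l1os2 were listed in control and were absent from the DHT gene bodies. Slc16a12 is a creatine carrier of the monocarboxylate transporter family, Tg is thyroglobulin, the precursor of thyroid hormone, and Atxn7l1os2 is a non-coding transcript opposite Atxn7l1. Whether the reads of the mark belong to Atxn7l1os2 or to the gene on the other strand cannot be told apart by ChIP-seq. No member was listed after DHT alone. The whole DHT list held 4.36% of all genes, but it includes genes also listed in control. The share listed after DHT alone is therefore lower and was not computed. The other 54 members were in neither gene body list. All 6 listed members were also among the 22 symbols of a separate deposited list, that of genes raised by DHT with a peak in their body. That list rests on the same peaks and is no independent evidence.

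Listing in a gene body list moved with gene length. The 58 members found in the reference had a median length of 23.0 kb (quartiles 9.56 and 54.3 kb), compared with 14.3 kb for all curated genes and 17.7 kb for protein-coding genes. The 6 listed members had a median of 129.53 kb (range 36.5 to 355 kb), and the 52 unlisted a median of 19.3 kb. Among all genes, 0.477% of those under 5 kb were in the control list, against 80.1% of those of 200 kb or more, and for the DHT list the shares were 0.0545% and 42.1%. Both members of 200 kb or more, Pik3c2g (355 kb) and Gsg1l (204 kb), were in both lists. Of 5 members between 100 and 200 kb, Tg (180.0 kb) was listed, while Gna14 (175 kb), Enpp6 (158 kb), Slit1 (149 kb) and Col18a1 (114 kb) were not. In this class, 48.4% of all genes were in the control list. Between 50 and 100 kb, 2 of 9 members were listed in control, Slc16a12 (79.1 kb) and Palmd (50.7 kb), compared with 26.3% of genes. Of the 26 members under 20 kb none was listed. In the length classes under 20 kb, 0.477% to 3.67% of all genes were in the control list and 0.0545% to 1.21% in the DHT list. Given the length classes of the members, 15.02% of comparable genes carried a control peak and 5.26% a DHT peak in the gene body.

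**Figure D2:**
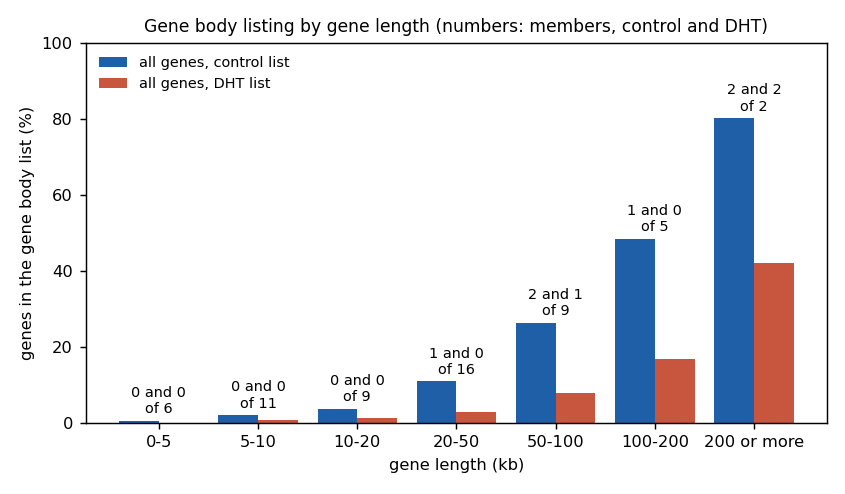
Share of all curated genes (y axis, percent) in the control (blue) and DHT (red) gene body lists by class of gene length (x axis, kb), with the members listed in control and in DHT, of the members in that class, written above each pair of bars. Listing rose with length, from 0.477% to 80.1% of genes in control, and both members of 200 kb or more were in both lists.

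The regions linked to the members were then compared with the peaks. Each region was 2 kb wide in mm9, and only its position was taken from the study. Members had 110 links to 108 distinct regions. Of the members, 31 had 1 region and 29 had 2 or more, with the most (8) at Fads2. Abcc2 and Scd2 shared a region on chromosome 19, and Clic3 and Grin1 shared one on chromosome 2, so the values of each pair are the same measurement. The regions had been selected on the H3K27me3 signal of these samples, so control and DHT peaks there are set side by side without a test. Peak positions are mm9, counted from 1, and distances run from the edge of the region to the edge of the peak. The intervals cover counting error only, and regions of 1 gene lie near each other and are not independent.

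A called peak was rarely at a linked region. In control, 1 of 108 regions overlapped a peak (0.926%, interval 0.164 to 5.06%), where 1.65% of all 2 kb tiles of the genome did (tiles run from the first to the last peak of each chromosome). After DHT, 0 of 108 regions did, which allows a share of up to 2.78% by the same limit of 3 counts (Wilson upper bound 3.435%), against 0.381% of tiles. Within 10 kb there was a control peak at 4 regions of 4 members (3.70%, interval 1.45 to 9.14%) and a DHT peak at 2 regions of 1 member (1.85%, interval 0.509 to 6.502%). The corresponding shares of tiles were 13.4% and 3.40%. Within 100 kb there was a control peak at 45 regions (41.7%, interval 32.8 to 51.1%) of 33 members, and a DHT peak at 22 regions (20.4%, interval 13.9 to 28.9%) of 18 members. Of all tiles, 67.0% had a control peak and 26.3% a DHT peak at this distance. Averaging the tiles over the chromosomes of the regions, a choice made after seeing the data, gave 64.4% and 25.9%. Within 100 kb, linked regions thus had a control peak in a lower share than the tiles did. For DHT peaks the share of tiles lay within the interval of the regions at this limit. Neither difference from the tiles was tested. Tiles cover every position, while linked regions were chosen by contacts with promoters, so the tiles are not matched to them. The lower share is not particular to these members. Of the 66 regions of downregulated genes described below, 33.3% had a control peak within 100 kb.

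**Figure D3:**
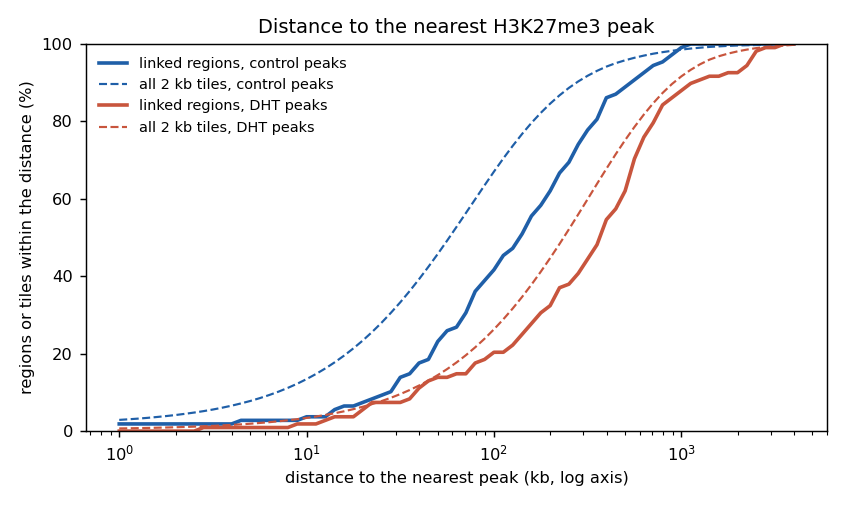
Cumulative share (y axis, percent) of the 108 linked regions (solid lines) and of all 2 kb tiles of the genome (dashed lines) with a peak within the distance on the x axis (kb, log scale), for control (blue) and DHT (red) peaks. At 100 kb the regions reached 41.7% and the tiles 67.0% for control peaks, and 20.4% and 26.3% for DHT peaks.

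Distances gave the same order between groups, with control peaks closer than DHT peaks. The median linked region lay 135 kb from a control peak (95% order-statistic interval of the median 94.2 to 181 kb, quartiles 55.1 and 286 kb) and 377 kb from a DHT peak (interval 282 to 468 kb, quartiles 144 and 615 kb). Tiles had medians of 57.7 and 235 kb, each below the interval of the regions, so regions lay farther than tiles from the peaks of both lists. These differences were not tested. The control list is longer, and the order between groups moved with its length. When the control list was cut to the 3975 peaks of lowest q-value, 13 of 108 regions (12.04%) had a control peak within 100 kb, fewer than the 22 with a DHT peak, and the median distance became 532 kb. Tiles under the same limit gave 26.2% and 238 kb. Counting by member, 20 had a control peak alone within 100 kb, 5 a DHT peak alone, 13 both and 22 neither. Counting by region, 29.6% had a control peak alone, 8.33% a DHT peak alone, 12.04% both and 50% neither, whereas tiles gave 47.2%, 6.41%, 19.9% and 26.6%.

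**Figure D4:**
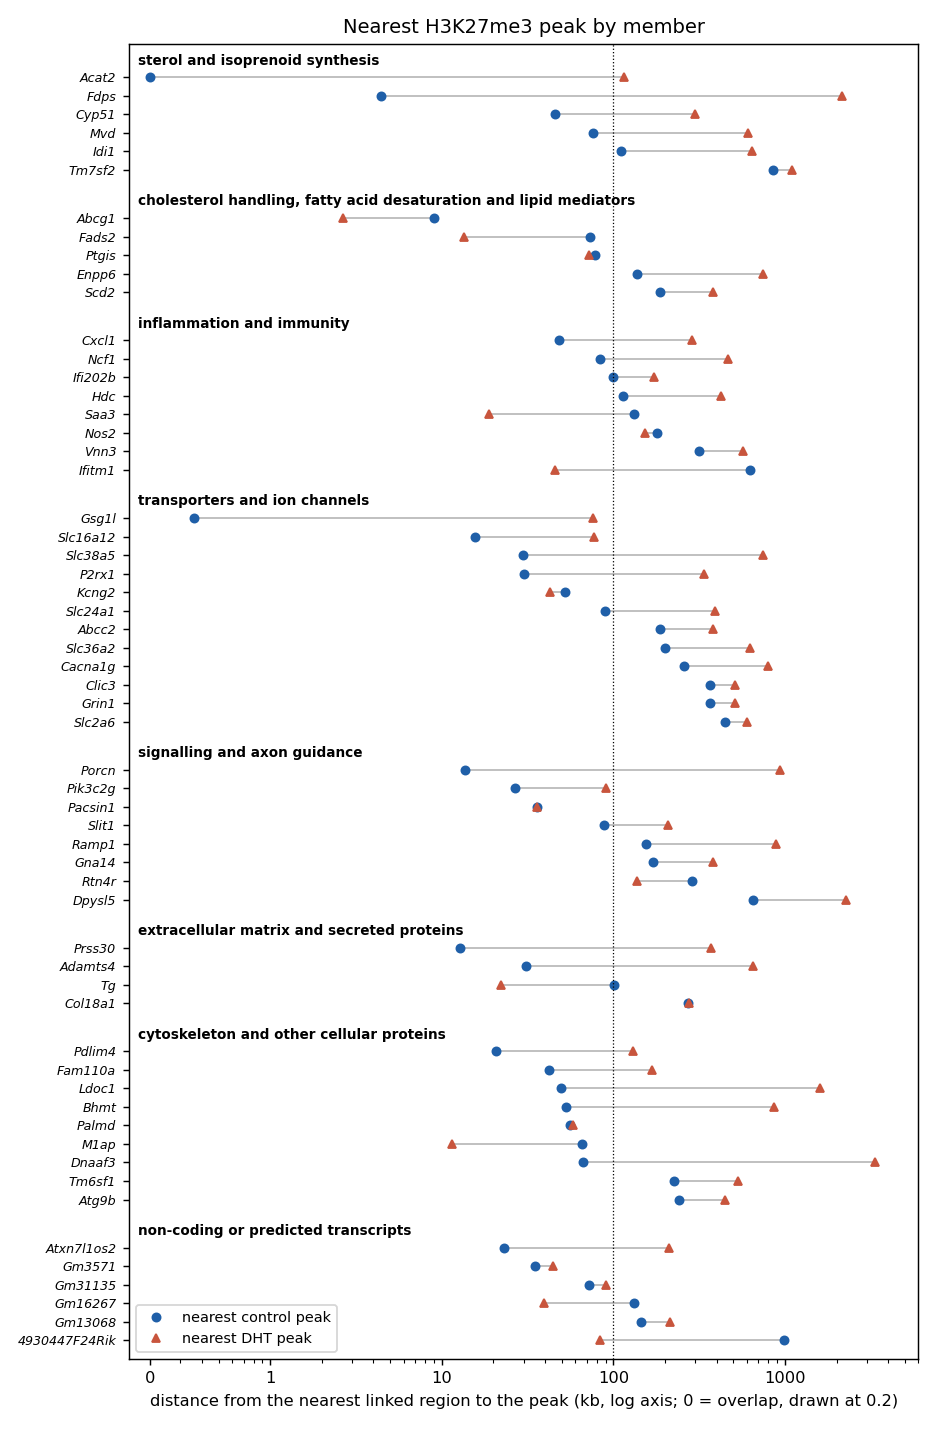
Distance from the linked regions of 58 of the 60 members to the nearest control peak (blue circles) and the nearest DHT peak (red triangles), in kb on a log axis with an overlap drawn at the left end and 100 kb marked by the dotted line, in 8 groups by function. Acat2 overlapped a control peak, and all 6 sterol genes had their nearest control peak closer than their nearest DHT peak, while Abcg1 and Fads2 had a DHT peak closer.

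The sterol group held enzymes from the first to the late steps of the mevalonate pathway. Of its 6 members, 4 had a control peak and 0 had a DHT peak within 100 kb, and none was in a gene body or promoter list. Over all members 33 and 18 of 60 had such peaks, and of all tiles 67.0% and 26.3%. A member counts when any of its regions has a peak, while a tile is a single window. Shares of members and of tiles are therefore not on the same scale. Acat2, the thiolase that joins acetyl-CoA units and the sterol gene whose promoter lacked a CCAAT box, was the single member with a peak at a linked region. That control peak, at chr17:12702421-12702732 (312 bp), had a fold enrichment of 5.07 and a −log10 q-value of 4.51, and 98.9% of control peaks had a lower fold. No DHT peak was called there, and the nearest one, 116 kb away at chr17:12818707-12819394, had a fold of 3.27. A further 3 control peaks lay within 100 kb of Acat2 regions. Its peak remained under a q-value limit of 0.001.

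Fdps, which makes farnesyl diphosphate, had 3 control peaks close to its regions. They lay 4.40 kb away at chr3:88746846-88747106 (fold 3.67), 9.04 kb away at chr3:88762536-88763519 (fold 3.21) and 18.2 kb away at chr3:88958111-88958372 (fold 4.34). The nearest DHT peak was 2140 kb away. Cyp51, the lanosterol demethylase, had its nearest control peak at 45.6 kb (chr5:3941408-3941668, fold 3.86) and its nearest DHT peak at 298 kb. For Mvd, the decarboxylase that yields isopentenyl diphosphate, the distances were 76.4 kb (chr8:125486500-125487191, fold 3.32) and 608 kb. Idi1, the isomerase of that product, and Tm7sf2, a sterol reductase, had no peak of either list within 100 kb, with control peaks at 111 and 854 kb and DHT peaks at 642 and 1100 kb. All 6 thus lay closer to a control peak than to a DHT peak, as did 47 of the 60 members. Over the 60 members the median nearest distances were 88.9 kb for control and 319 kb for DHT, and for the sterol group 61.0 and 625 kb. That difference was not tested, and the control list holds more peaks.

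The wider pathway was looked up in the gene lists. Of 20 genes of cholesterol synthesis, 6 were members, 0 were in the control gene body list and 1, the mevalonate kinase gene Mvk, was in the DHT list. None was in a promoter list or among the downregulated genes with an enhancer. These genes had a median length of 17.006 kb, in a class where 3.67% of all genes were listed in control and 1.21% after DHT. The promoter lists held 0.603% of all genes in control and 0.206% after DHT. No difference from these shares was tested. Of 13 genes for sterol sensing and uptake, 2 were members, Abcg1 among them, and 1, Insig2, which retains SREBP precursors in the endoplasmic reticulum, was in the control gene body list, which held 11.9% of all genes.

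The group of lipid handling had peaks of both lists near its regions. Within 100 kb, 4 of 6 members had a control peak and the same 4 had a DHT peak, beside 33 and 18 of all 60 members and 67.0% and 26.3% of tiles. Members with more regions have more ways to be counted, with 8 regions at Fads2, so the tiles are not a like measure. No difference in either count was tested. Abcg1, which exports cholesterol to high-density lipoprotein, was the only member with a DHT peak within 10 kb. A DHT peak without a control counterpart lay 2.65 kb from one region (chr17:31171857-31172131, fold 3.76, −log10 q-value 1.599). At its other region both lists had a peak, the control one 9.00 kb away at chr17:31568680-31569270 (fold 3.68) and the DHT one 8.74 kb away at chr17:31568428-31569083 (fold 4.75). Fads2, a desaturase of polyunsaturated fatty acids, had a DHT peak at 13.4 kb (chr19:9979689-9980169, fold 3.81) and a control peak at 72.8 kb. Ptgis, the prostacyclin synthase, had them at 72.2 and 77.8 kb. Scd2, a stearoyl-CoA desaturase, and Enpp6, a choline phosphodiesterase, had neither within 100 kb. For 4 of 6 genes in this group the nearest peak was a DHT peak, while for 47 of all 60 members it was a control peak. The groups were chosen with earlier results known, and this difference was not tested.

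Members of inflammation and immunity, a process that accompanies ovulation in GCs, had 3 with a control peak alone (Cxcl1 and Ncf1 among them), 2 with a DHT peak alone (Saa3 and Ifitm1) and 4 with neither within 100 kb. Over all 60 members, 20 had a control peak alone, 5 a DHT peak alone, 13 both and 22 neither. Saa3, an acute phase protein, had 3 DHT peaks, the nearest at 18.8 kb (chr7:53982454-53982745, fold 4.70), and its nearest control peak was at 133 kb. Ifitm1, an interferon-induced membrane protein, had a DHT peak at 46.0 kb and its nearest control peak at 628 kb. Cxcl1 had a control peak at 47.9 kb and Ncf1, a subunit of the phagocyte NADPH oxidase, at 83.1 kb. Ifi202b, an interferon-inducible DNA-binding protein, lay 100.2 kb from a control peak, just past the limit. Nos2 (inducible nitric oxide synthase), Vnn3 (a pantetheinase) and Hdc (which makes histamine) also had neither.

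Of the 12 transporters and ion channels, 3 had a control peak alone, 3 had both and 6 had neither within 100 kb. The counts over all 60 members were 20, 13 and 22. Gsg1l had 4 control peaks, of which the closest lay 0.359 kb (chr7:132876770-132877172, fold 3.36) and 2.21 kb (chr7:132881738-132881998, fold 3.65) from a region. Another, 76.1 kb away at chr7:133214525-133214785 (fold 3.72), overlapped the only DHT peak, at chr7:133214544-133214818 (fold 4.48). Slc16a12 also had 4 control peaks, the nearest at 15.7 kb (chr19:34776303-34776563, fold 3.99), and 1 DHT peak at 77.5 kb. Kcng2, a modifier subunit of voltage-gated potassium channels, had a control peak at 52.1 kb (fold 3.96) and a DHT peak at 42.7 kb (fold 5.67). The ATP-gated channel P2rx1, the glutamine transporter Slc38a5 and the retinal cation exchanger Slc24a1 had control peaks at 30.1, 29.8 and 89.5 kb. The shared regions left Abcc2, an organic anion pump, and Scd2 at 186 and 379 kb from control and DHT peaks, and Clic3, an intracellular chloride channel protein, and Grin1, the obligate NMDA receptor subunit, at 366 and 515 kb. Slc2a6, Slc36a2 and the T-type calcium channel Cacna1g had neither within 100 kb.

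In signalling and axon guidance, 2 of 8 members had a control peak alone, 2 had both and 4 had neither, beside 20, 13 and 22 of all 60. Porcn, the acyltransferase that lipidates WNT proteins before secretion, had a control peak at 13.7 kb (chrX:7365412-7365758, fold 3.37) and its nearest DHT peak at 940.3 kb. Slit1, a ligand of ROBO receptors, had a control peak at 88.4 kb. Pacsin1, which shapes membranes in endocytosis, had a pair of peaks present in both lists on one side of a linked region. The control peaks at chr17:27604189-27604504 (38.0 kb away, fold 4.12) and chr17:27606405-27606665 (35.8 kb away, fold 4.22) overlapped DHT peaks at chr17:27604120-27604570 (fold 3.79) and chr17:27606340-27606614 (fold 4.91). Pik3c2g had 3 control peaks, the nearest at 26.7 kb, and 1 DHT peak at 90.7 kb. Gna14, a G protein subunit of the Gq family, Ramp1, a co-receptor for calcitonin gene-related peptide, the Nogo receptor gene Rtn4r and the collapsin response mediator Dpysl5 had no peak that close.

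Among the 4 genes of extracellular matrix or secreted proteins, Prss30, a serine protease, had a control peak at 12.7 kb (chr17:24002421-24002789, fold 3.24). Adamts4, a protease that cleaves the proteoglycan matrix, had one at 30.9 kb (fold 3.796), with the nearest DHT peak at 655 kb. Tg, listed in control gene bodies, had the reverse order at its region, with a DHT peak at 22.2 kb (chr15:66711361-66712562, fold 3.59) and a control peak at 100.6 kb. Col18a1, the collagen from which endostatin is cut, lay 272 and 275 kb from control and DHT peaks.

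Of the 9 other cellular proteins, 7 had a control peak within 100 kb and 2 of these a DHT peak as well. Over all 60 members 33 had a control peak and 18 a DHT peak, and the difference was not tested. Pdlim4, an actin-associated adaptor, had a control peak at 20.6 kb (chr11:54106761-54107021, fold 3.48). Its nearest DHT peak, 130 kb away, was strong, with a fold of 7.52 and a −log10 q-value of 21.3. M1ap, a meiosis protein of germ cells, had a DHT peak at 11.4 kb (chr6:83642263-83642566, fold 4.27) and a control peak at 66.1 kb. Palmd had them at 58.0 and 55.7 kb. Fam110a, Ldoc1, Bhmt and Dnaaf3 had control peaks between 42.3 and 66.9 kb and no DHT peak within 100 kb. These genes encode a centrosomal protein, a protein derived from a retrotransposon, the betaine-homocysteine methyltransferase and a dynein assembly factor. Tm6sf1, a membrane protein, and the autophagy gene Atg9b had neither.

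Of the 6 non-coding or predicted transcripts, 1 had a control peak alone, 2 a DHT peak alone, 2 both and 1 neither. All 60 members gave 20, 5, 13 and 22. Atxn7l1os2 had a control peak at 23.1 kb (chr12:34082350-34083364, fold 3.15). On the same chromosome, Gm16267 had a DHT peak at 39.4 kb (chr12:33896498-33896806, fold 3.86), which was also the nearest DHT peak of Atxn7l1os2 at 210 kb. Gm31135 lay 90.8 kb from the DHT peak with the highest fold of those near members (chr8:8752630-8752957, fold 6.58) and 71.9 kb from a control peak of 3.37. Gm3571, a pseudogene, had a control peak at 35.1 kb and a DHT peak at 44.2 kb, 4930447F24Rik a DHT peak at 83.7 kb alone, and Gm13068 neither.

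The peaks near the members resembled their lists. The 57 control peaks within 100 kb had a median fold of 3.56 (range 3.03 to 5.07) and a median width of 381 bp, and the 22 DHT peaks had a median fold of 4.43 (range 3.59 to 6.58) and a median width of 299 bp. At a q-value of 0.01 or less, 26 of the 57 control peaks (45.6%) remained, compared with 38.6% of all control peaks, and 15 of the 22 DHT peaks (68.2%), compared with 65.7% of all DHT peaks. A control peak overlapped a DHT peak in 4 of 57 cases (7.02%, interval 2.76 to 16.7%), against 4.12% of all control peaks. The 4 pairs lay near Abcg1, Gsg1l and Pacsin1, the last with 2. As a share of the DHT peaks they made up 18.2% (interval 7.31 to 38.5%), against 16.9% of all DHT peaks. Fold was higher in the DHT peak in 3 of the 4 pairs, but the folds belong to separately scaled pools.

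**Figure D5:**
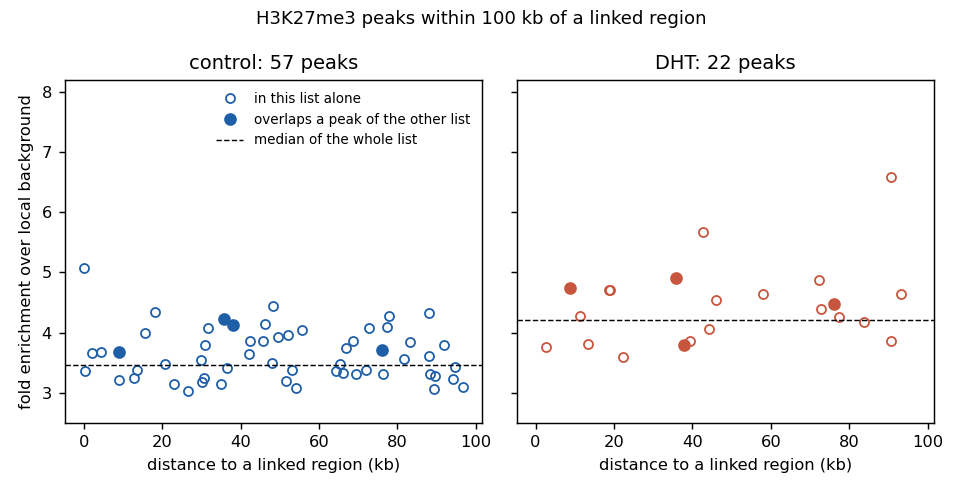
Fold enrichment over local background (y axis) of each peak within 100 kb of a linked region against its distance (x axis, kb), for the 57 control peaks (left) and the 22 DHT peaks (right), with filled circles where it overlaps a peak of the other list and the median of the whole list as a dashed line. Control peaks lie between 3.03 and 5.07, highest at the overlapping Acat2 peak, and DHT peaks between 3.59 and 6.58, while each fold is relative to its own pool.

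The 33 downregulated genes with linked regions give the nearest comparison. In gene bodies, 4 of them (12.1%, interval 4.82 to 27.3%) were listed in control and 3 (9.09%, interval 3.14 to 23.6%) after DHT, beside 10% and 5% of the upregulated members, and 0 were in a promoter list. Of these, Ntf3 and Slc6a4 were listed after DHT alone, beside 0 of the 60 upregulated members. The whole DHT gene body list held 4.36% of all genes, and the share listed after DHT alone was not computed. Counts this small do not separate the sets. At their 66 regions, 0 overlapped a control peak and 2 a DHT peak (3.03%), beside 1 and 0 at the 108 regions of upregulated members. Of all tiles, 1.65% overlapped a control peak and 0.381% a DHT peak, so these few overlaps give no order between the sets. Within 100 kb, 33.3% of their regions had a control peak and 16.7% a DHT peak, against 41.7% and 20.4%. The intervals of all these shares overlapped, and no difference between the sets was tested.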

How the data were processed

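H3K27me3 ChIP-seq was done on 3 control and 3 DHT cultures, grouped by the labelled agent. The authors mapped reads to mm9 with Bowtie2 2.3.4, kept unique reads and called broad peaks with MACS2 2.1.1, keeping q-values up to 0.05. The deposited peak lists give a score that is the −log10 q-value times 10 without its decimals, a ratio of fold enrichment over local background, and the −log10 q-value itself. Replicates were combined in 1 list per group, how is not given in the sources used here, and depth is unknown. Whether an input library served as the background of the fold enrichment and q-values is not given in the sources used here either. The deposited gene lists hold symbols alone. Authors' values were used as deposited.

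Symbols were matched to 26216 curated RefSeq genes, which gave names and lengths. Of the symbols in the control and DHT gene body lists 3136 and 1143 matched, and of those in the promoter lists 158 and 54. Linked regions were located by the positions in the study's supplement, and no other value of it was used. Peaks and 5 of these regions run past the end of chromosome 7 in GRCm38, so neither is in that build. Overlap required 1 bp. Background was the share of all genes, or of all 2 kb tiles between the first and last peak of each chromosome. Analysis used Python 3.11.15, numpy 2.4.6, scipy 1.17.1, pandas 2.3.3 and matplotlib 3.10.9, and the counting code was tested on simulated data.

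Members, groups, pathway lists and motifs were chosen with earlier results of these data known. Named with values were members in a gene list, with a peak within 10 kb, of the sterol group, or sharing a region, and examples of each group. The values of 2 members are not reported here, and these members stay in the counts. The alternatives were matching of older symbols, protein-coding genes, length classes, stricter q-values, other overlaps and distances, and 1 value per member. Not used here were an mm9 genome or annotation, so peaks are not placed in exons or introns and no enhancer sequence is shown.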

Additional observations from a re-analysis of the deposited data

How the results depend on the processing

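Of 26 alternative settings over 14 results, 15 kept a count within 1.5 times that reported, or a distance or background share within its 95% interval. The background shares rest on 26216 genes and have narrow intervals, so small shifts passed them. The counts of members in the gene lists were the same with older symbols mapped, and with protein-coding members alone 5 and 3 were in the control and DHT gene body lists. The background share of genes rose from 11.9% in the control gene body list to 13.6% with protein-coding genes and 15.02% with the length classes of the members, and from 4.36% to 4.96% and 5.26% in the DHT list. Regions with a control peak went from 1 by overlap to 4 within 10 kb and 45 within 100 kb, and with a DHT peak from 0 to 2 and 22. With 1 value per member the median distance to a control peak was 88.9 kb and not 135 kb. With the control list cut to the DHT number of peaks it was 532 kb, and the regions within 100 kb fell from 45 to 13, a count added after seeing the data. Stricter q-values left the overlaps at 1 and 0, but these outcomes were fixed in advance. A count of 0 cannot fall, and the 1 overlapping control peak had a −log10 q-value of 4.51, past both limits. The DHT overlaps were also fixed at 0 when more of the peak had to lie inside the region. So was the DHT gene body count with protein-coding members, because all 3 listed members are protein coding. All these settings are among the 15 and say nothing of stability. Members with a control peak within 10 kb went from 4 to 3 at a q-value of 0.01. No paired analysis was possible because each group has 1 pooled list with no value per replicate, and for the same reason no replicate could be left out. The number of peaks in each list limits what distances can show, and the share of libraries in each pool is unknown.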

Other observations

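Marker genes of the cell types that an ovarian preparation can hold were looked up in the H3K27me3 gene body lists, which say nothing of expression. Of 12 GC markers, Fshr (the FSH receptor) and Cyp19a1 (aromatase) were listed in control, and Fshr and Nr5a2 (a nuclear receptor of steroidogenic cells) after DHT. Of 5 immune markers, Ptprc was in both lists. Of 4 endothelial markers, Pecam1 and Tek were listed in control and Pecam1 after DHT. All genes were listed at 11.9% in control and 4.36% after DHT, and no difference from that rate was tested. None of the 5 theca and stromal or 4 oocyte markers was listed, and none of the 30 markers was in a promoter list or among the members.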
